A study of Mus musculus with 14 samples.

Results

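Of 14 mouse thymic lymphomas, 10 were keratin-rich and 4 were keratin-poor. The sides were chosen by the measured level of Krt8, a keratin of simple epithelium: of its 3 probe sets, the one with the highest mean over the 14 arrays had to reach a log2 value of 8. Krt8 was left out of every test, and its values are given as a description only. Because the sides were selected on a value from the same arrays, each test below asks whether a gene goes with the Krt8 side and does not compare conditions of the study.

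The study measured total RNA of 1 thymic lymphoma per mouse on Affymetrix arrays, in mice with different HIF1a alleles. The 5 HIF1a+/+ tumours, the 5 HIF1a+/- tumours and the 4 HIF1aKI/+ tumours all came from mice homozygous for the p53 R270H mutation on a mixed C57BL/6-129/SvEvTac background, and the labels do not say what the KI allele carries. Mice were kept until breathing became laboured, so the tissue is whole tumour at the end stage, stored in RNAlater, and its non-lymphoid cells were not removed. Sex, age and batch are not in the labels. Values are the authors' log2 probe set summaries, in which a step of 1 is a doubling of signal, and levels of different genes are not comparable because each probe set has its own response. The low values form a mode that ends at 4.41, called background here, and where a mean lies below it the size of a difference is not well determined. Array medians lay between 7.91 and 8.03, and the correlation between 2 arrays over all genes had a median of 0.962 within the keratin-rich side, 0.959 within the keratin-poor side and 0.958 between the sides. Cd3e, which encodes a chain of the T cell receptor complex and was chosen after its values were seen, had a mean of 12.82 ± 0.38 (SD, n = 10) in keratin-rich and 13.04 ± 0.29 (SD, n = 4) in keratin-poor tumours, so the T-lineage marker was high on both sides.

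The thymus is built on a meshwork of epithelial cells that feed, select and educate developing T cells. Its cortex carries mainly keratins 8 and 18, its medulla mainly keratins 5 and 14, and keratins pair as 1 acidic and 1 basic chain to form filaments. Keratins are markers of epithelium and are not used to identify T cells.

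Krt8 was lowest in HIF1a+/+ tumour 4, at 2.04, and in HIF1a+/+ tumour 3, at 3.09. HIF1a+/+ tumour 5 stood at 6.62 and HIF1a+/- tumour 1 at 7.995, just under the split. The nearest tumour inside the keratin-rich side was HIF1aKI/+ tumour 4, at 9.59, and the keratin-rich side had a median of 10.62 and a highest value of 11.65. The 4 keratin-poor tumours were thus spread from background to a clear signal, with HIF1a+/- tumour 1 nearest to the other side. Of the HIF1a+/+ tumours 3 were keratin-poor and 2 keratin-rich, of the HIF1a+/- tumours 1 was keratin-poor and 4 keratin-rich, and all 4 HIF1aKI/+ tumours were keratin-rich. This make-up did not pass a two-sided Fisher's exact test (p = 0.231), but the sides were not balanced over genotype.

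Sequence of the promoters of 4 keratins is shown because these genes were past the threshold below or chose the sides. It is the 250 bases upstream of the RefSeq start in build GRCm38.p6, on the gene's own strand, with motif matches in capitals: Krt8 at chr15:102004343-102004592 (minus strand), Krt18 at chr15:102027966-102028215 (plus strand), Krt5 at chr15:101712906-101713155 (minus strand) and Krt14 at chr11:100206031-100206280 (minus strand).
Krt8: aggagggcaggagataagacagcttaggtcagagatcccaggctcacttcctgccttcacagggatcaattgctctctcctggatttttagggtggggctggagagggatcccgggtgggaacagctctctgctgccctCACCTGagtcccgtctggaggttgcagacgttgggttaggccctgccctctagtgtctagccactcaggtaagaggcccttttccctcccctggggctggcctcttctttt
Krt18: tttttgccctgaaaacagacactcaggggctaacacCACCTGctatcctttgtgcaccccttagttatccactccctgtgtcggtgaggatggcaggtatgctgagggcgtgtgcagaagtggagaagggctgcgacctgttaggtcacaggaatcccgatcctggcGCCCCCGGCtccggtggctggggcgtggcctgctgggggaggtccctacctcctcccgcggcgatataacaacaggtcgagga
Krt5: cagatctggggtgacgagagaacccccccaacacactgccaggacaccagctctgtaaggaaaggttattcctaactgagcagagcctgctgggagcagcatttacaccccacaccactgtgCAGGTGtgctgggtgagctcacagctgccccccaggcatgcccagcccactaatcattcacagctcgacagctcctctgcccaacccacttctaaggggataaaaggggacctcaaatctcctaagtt
Krt14: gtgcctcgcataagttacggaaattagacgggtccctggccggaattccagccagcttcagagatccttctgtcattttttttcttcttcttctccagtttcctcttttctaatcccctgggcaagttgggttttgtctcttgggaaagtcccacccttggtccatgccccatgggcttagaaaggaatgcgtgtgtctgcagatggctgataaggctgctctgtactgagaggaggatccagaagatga
Krt8, Krt18 and Krt5 thus lie on chromosome 15 and Krt14 on chromosome 11. All patterns were searched on both strands, and overlapping matches of different patterns were kept. The E-box CAGGTG was found in Krt8, Krt18, Krt5 and Pawr, which is 4 of the 8 genes with a promoter sequence among Krt8 and the 12 called below. Over all 32851 promoters the share was 17.2%, counted by promoter and not by gene. Krt8, which chose the sides, is among the 8, and these shares were not tested. The AP-2 pattern GCCNNNGGC was found in 2 of 8 (Krt18 and Parm1) against 13.7%, the GC box GGGCGG in 1 of 8 (Pawr) against 32.7%, and the TATA box TATAAA in 1 of 8 (Wfdc18) against 12.4%. A match is a run of letters and no measured site.

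Over 10253 genes other than Krt8, 12 were higher in keratin-rich tumours at an adjusted p under 0.05 in limma, which is 0.117% of the genes tested, and 0 were lower, which is 0%. At an unadjusted p under 0.05 in limma, 333 genes (3.25%) were higher and 352 (3.43%) were lower. Whatever their p, 4804 of the 10253 genes had a higher mean in keratin-rich tumours and 5449 a lower one. The 12 were keratins and other epithelial genes (Krt18, Krt5, Krt14, Trp63, Cdh1 and Dsc2), 2 genes of secreted proteins (Wfdc18 and Defb1), and Serpinb1a, Parm1, Isl1 and Pawr. In whole tumour, fewer epithelial cells and less RNA per epithelial cell cannot be told apart. With genotype as a covariate 0 genes passed (309 higher at an unadjusted limma p under 0.05). All 12 differences stayed positive, which was fixed in advance for genes whose sides do not overlap. The count of higher genes was 4 without HIF1a+/+ tumour 3, 6 without HIF1a+/+ tumour 4, 7 without HIF1a+/- tumour 3 and 18 without HIF1aKI/+ tumour 4.

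Krt18, the filament partner of Krt8, had values of 3.21, 3.56 and 3.45 in HIF1a+/+ tumours 3, 4 and 5 and 7.55 in HIF1a+/- tumour 1. Its keratin-rich values ran from 8.52 through a median of 10.18 to 10.78. All 10 keratin-rich tumours were above all 4 keratin-poor ones, and HIF1a+/- tumour 1 stood apart from the other three. The log2 difference was 5.52 ± 0.71 (SE; limma adjusted p = 0.00935), a 46.0-fold difference, and the two-sided exact permutation p was 9.99e-04, the smallest that 1001 assignments of the arrays can give. With genotype as a covariate it was 4.76 (limma adjusted p = 0.219). Within HIF1a+/+ tumours the difference was 6.25 and within HIF1a+/- tumours 2.52, where the keratin-poor side is HIF1a+/- tumour 1 alone; the difference between these effects had a limma p of 0.00496 and an adjusted p of 0.346.

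Krt5, a keratin of basal and medullary epithelium, was 3.84, 4.37 and 5.58 in HIF1a+/+ tumours 3, 4 and 5 and 6.65 in HIF1a+/- tumour 1. Keratin-rich values lay between 7.31 and 9.65 with a median of 8.57, so the sides did not overlap. The difference was 3.52 ± 0.52 (SE; limma adjusted p = 0.0201), an 11.5-fold difference, with an exact permutation p of 9.99e-04. With genotype as a covariate it was 3.11 (limma adjusted p = 0.330), and it was past the threshold neither without HIF1a+/+ tumour 3 (3.10, adjusted p = 0.0863) nor without HIF1a+/+ tumour 4 (3.28, adjusted p = 0.112). Krt14, the usual partner of Krt5, was 2.17, 2.20, 2.27 and 3.84 in the keratin-poor tumours and ran from 3.62 to 6.24 in the keratin-rich ones, with a difference of 2.73 ± 0.44 (SE; limma adjusted p = 0.0379). Krt14 was the exception among the 12: HIF1aKI/+ tumour 4, at 3.62, was below HIF1a+/- tumour 1. A further Krt14 probe set differed by 0.56 and was at background on both sides.

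Of the other keratins, Krt17 and Krt7 were chosen after their values were seen. Krt17, which like Krt5 and Krt14 marks basal epithelium, was 6.12 to 6.16 in all 4 keratin-poor tumours (SD 0.017). It ran from 6.45 to 8.50 in the keratin-rich ones. Whether the narrow keratin-poor range is signal or the floor of this probe set was not tested. Krt7, of simple epithelium, was 1.94 to 2.41 in keratin-poor and 2.41 to 4.29 in keratin-rich tumours, all values below the low-mode boundary. Neither passed the threshold, with differences of 1.36 (limma adjusted p = 0.283) and 1.56 (limma adjusted p = 0.0924). Over all 21 measured keratins other than Krt8, 12 had a higher mean in keratin-rich tumours and 9 a lower one, 3 were past the threshold, and 16 lay below the boundary on both sides. Their median difference was 0.01, against -0.0046 over all genes.

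**Figure D1:**
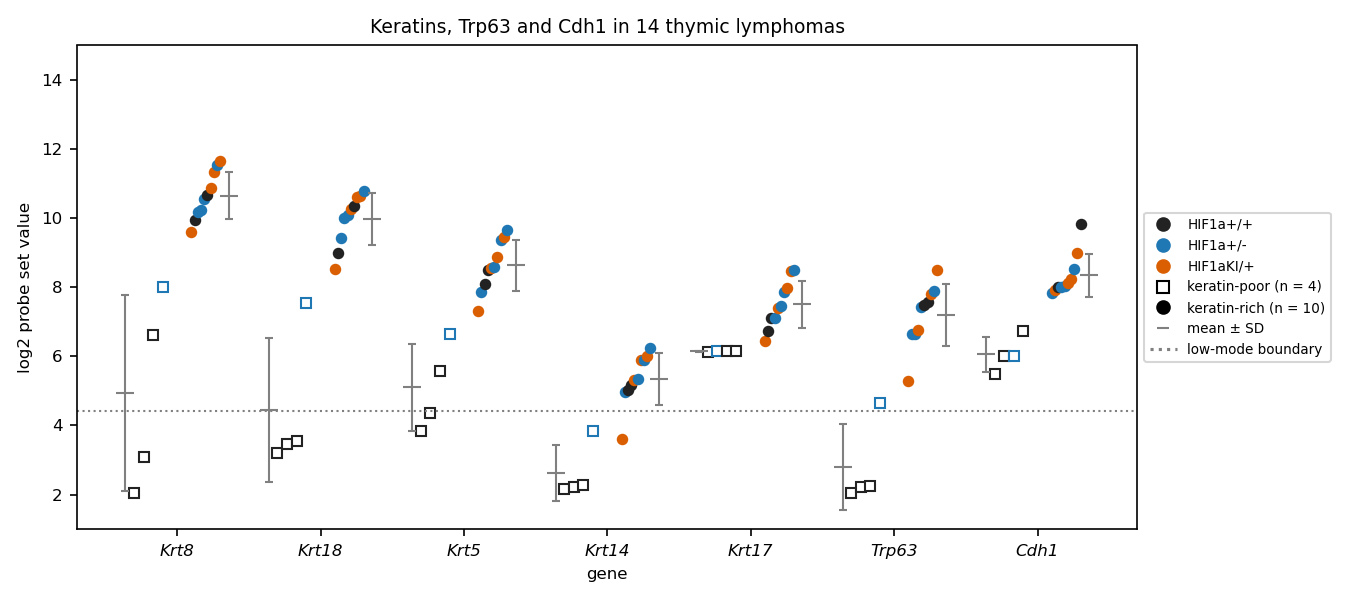
Log2 probe set values of Krt8, Krt18, Krt5, Krt14, Krt17, Trp63 and Cdh1 (one column of points per gene, coloured by genotype; open squares keratin-poor, n = 4; filled circles keratin-rich, n = 10; bars mean ± SD; dotted line the low-mode boundary at 4.41). HIF1a+/- tumour 1, the blue square, is the highest keratin-poor tumour for Krt18 (7.55), Krt5 (6.65) and Trp63 (4.64).

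Outside the keratins, 3 genes of the epithelial lists passed the threshold: Trp63, Cdh1 and Dsc2. Trp63, which encodes p63, a transcription factor of stratified and thymic epithelium, was 2.04, 2.24 and 2.23 in HIF1a+/+ tumours 3, 4 and 5 and 4.64 in HIF1a+/- tumour 1. Its keratin-rich values ran from 5.29 to 8.49, with a median of 7.47, and HIF1aKI/+ tumour 4 was lowest. The sides did not overlap, and the difference was 4.42 ± 0.57 (SE; limma adjusted p = 0.00935). Cdh1, encoding the adhesion protein E-cadherin, was 5.50 to 6.73 in keratin-poor and 7.84 to 9.83 in keratin-rich tumours and differed by 2.29 ± 0.34 (SE; limma adjusted p = 0.0215). Dsc2, a cadherin of desmosomes, was 2.12 to 3.59 in keratin-poor and 4.98 to 7.61 in keratin-rich tumours and differed by 3.38 ± 0.54 (SE; limma adjusted p = 0.0379). A further Dsc2 probe set was at background on both sides.

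Among the 12 genes past the threshold the widest difference was that of Wfdc18, which encodes a small secreted protein with a WAP domain. It was 4.25, 3.22 and 9.45 in HIF1a+/+ tumours 3, 4 and 5 and 9.57 in HIF1a+/- tumour 1, and in keratin-rich tumours it ran from 11.13 through 13.46 to 13.97. The keratin-poor tumours divided into a low pair and a middle pair, all below the keratin-rich ones. The difference was 6.38 ± 1.07 (SE; limma adjusted p = 0.0455), an 83.4-fold difference, and it passed the threshold in 3 of 14 fits that left out 1 tumour (adjusted p up to 0.199). Defb1, a beta-defensin of epithelia, was 2.03 to 4.84 in keratin-poor and 5.99 to 9.47 in keratin-rich tumours, and differed by 4.61 ± 0.58 (SE; limma adjusted p = 0.00935).

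Serpinb1a, an intracellular inhibitor of serine proteases, was 1.96 to 5.10 in keratin-poor and 6.35 to 9.27 in keratin-rich tumours and differed by 5.02 ± 0.62 (SE; limma adjusted p = 0.00935). Parm1, a mucin-like membrane protein, was 3.30 to 5.02 against 6.09 to 9.27 and differed by 3.69 ± 0.61 (SE; limma adjusted p = 0.0391). Isl1, a LIM-homeodomain transcription factor, was 2.01 to 2.62 against 4.49 to 6.85 and differed by 3.40 ± 0.48 (SE; limma adjusted p = 0.0160), while a further Isl1 probe set was at background on both sides. Pawr, which encodes the pro-apoptotic protein Par-4, was 6.39 to 7.56 against 8.16 to 9.94 and differed by 2.13 ± 0.28 (SE; limma adjusted p = 0.00950). The second probe sets of Serpinb1a, Defb1 and Parm1 differed by 3.41, 3.88 and 2.87. Leaving out 1 tumour at a time, the threshold was passed in 14 of 14 fits by Serpinb1a, Defb1 and Pawr, in 13 by Krt18 and Trp63, in 12 by Krt5 and Isl1 and in 10 by Cdh1. Dsc2 passed in 5, Parm1 in 4 and Krt14, like Wfdc18, in 3. The difference was positive in each fit, which was fixed in advance for genes whose sides do not overlap. For Serpinb1a, Defb1, Trp63, Parm1, Isl1, Dsc2 and Krt14 the keratin-poor mean lay below the low-mode boundary. Some keratin-poor values lay below it for Krt18 (3.21, 3.56 and 3.45), Krt5 (3.84 and 4.37) and Wfdc18 (4.25 and 3.22). The size of their fold differences is therefore not well determined either.

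**Figure D2:**
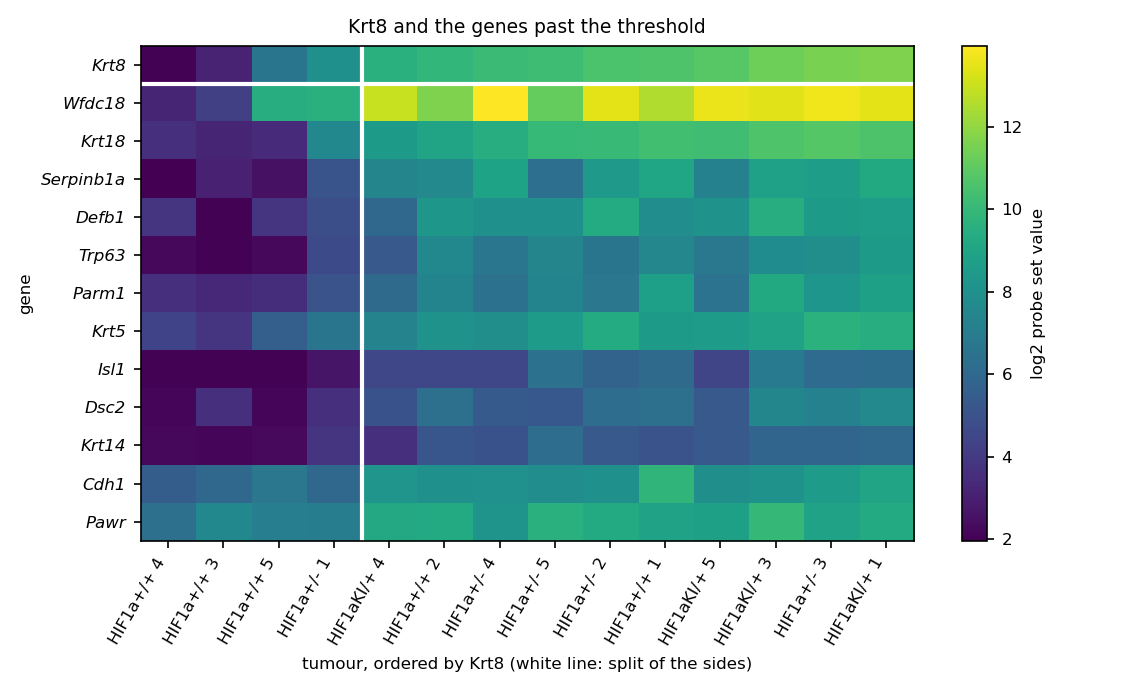
Log2 value of Krt8 (top row) and of the 12 genes past the threshold (rows) in each of the 14 tumours (columns), ordered from left to right by Krt8; the white line separates the 4 keratin-poor from the 10 keratin-rich tumours. Wfdc18 is bright in all keratin-rich tumours (11.13 or more) and intermediate in HIF1a+/+ tumour 5 and HIF1a+/- tumour 1 (9.45 and 9.57).

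For 11 of these 12 genes, all but Krt14, the sides did not overlap over the 14 tumours. For these 11 the sides could not overlap within a genotype either, so the separation there adds nothing. Krt14 overlapped only through HIF1aKI/+ tumour 4, a genotype with no keratin-poor tumour. Its lack of overlap within HIF1a+/+ (lowest keratin-rich 5.04, highest keratin-poor 2.27) and within HIF1a+/- (4.97 and 3.84) therefore adds nothing either. Over all genes, 43 (0.419%) were higher without overlap and 14 (0.137%) lower without overlap. The 6 genes of highest Pearson correlation with Krt8 over the 14 tumours were Wfdc18 (r = 0.973), Krt5 (r = 0.965), Krt18 (r = 0.948), Trp63 (r = 0.927), Serpinb1a (r = 0.917) and Defb1 (r = 0.909). They shared the arrays and were ranked by this value, which includes the gap between the sides. Within the 10 keratin-rich tumours alone r was 0.928 for Krt18, 0.862 for Krt5, 0.752 for Trp63, 0.659 for Defb1, 0.554 for Serpinb1a and 0.470 for Wfdc18.

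The sides also differed in sex-linked genes, and sex is not in the labels. Xist, which is transcribed from an inactive X chromosome, was above the low-mode boundary in 3 of 4 keratin-poor tumours (all but HIF1a+/+ tumour 4) and in 1 of 10 keratin-rich ones (HIF1aKI/+ tumour 1). Eif2s3y, a Y-linked gene, was above it in 1 of 4 keratin-poor and 9 of 10 keratin-rich tumours. With the Y-linked level (the mean of Eif2s3y, Kdm5d and Uty) as a covariate, an alternative chosen after seeing the data, 3 genes were called higher, 2 of them among the 12. Krt18 then differed by 6.18 (limma adjusted p = 0.0671) and Krt5 by 4.45 (limma adjusted p = 0.0573), so both differences were larger and short of the threshold. HIF1aKI/+ tumour 1 had Xist at 11.97 and the highest Krt8 of the series, at 11.65.

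**Figure D3:**
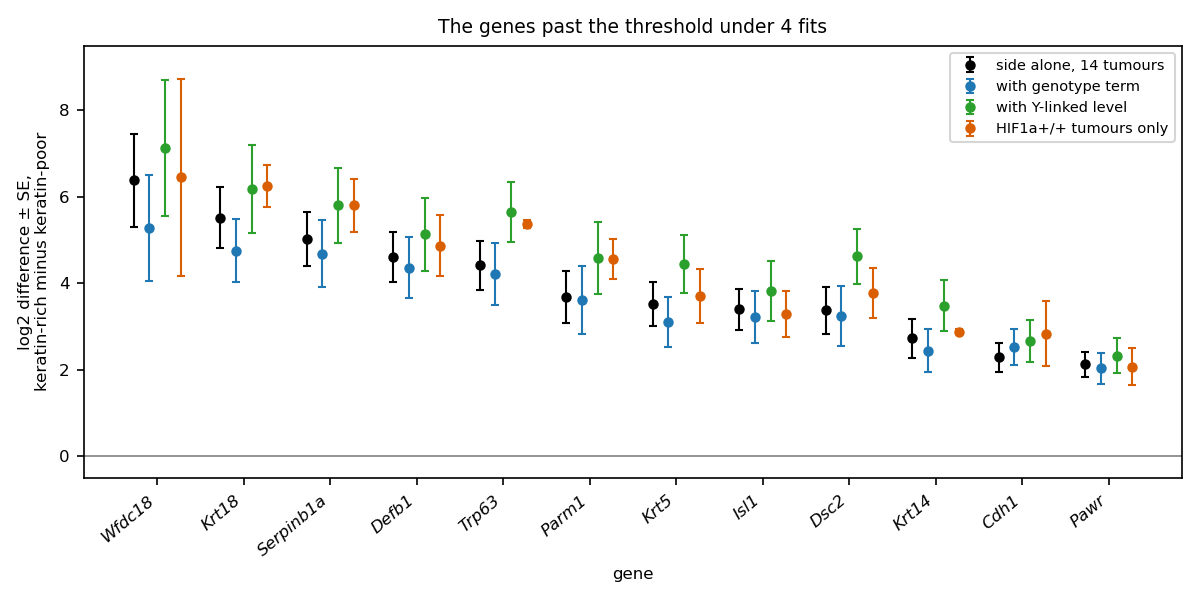
Log2 difference, keratin-rich minus keratin-poor (vertical axis), of the 12 genes past the threshold under 4 fits: side alone over the 14 tumours, with a genotype term, with the Y-linked level, and in HIF1a+/+ tumours only (points estimates, bars ± SE of the fit). All 12 differences are above 0 in each. The 12 genes were selected as higher on these same arrays, so their sign is no independent result. With the genotype term Krt18 is at 4.76 and Krt5 at 3.11.

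Of 15 measured thymic epithelial markers other than Krt8, 13 had a higher mean in keratin-rich tumours, 7 had an unadjusted limma p under 0.05, and the median difference was 1.46. Over all genes tested, 4804 of 10253 had a higher mean. Of the 4 past the threshold, 3 were keratins (Krt18, Krt5 and Krt14) and the other was Trp63. Without the keratins, 10 markers were measured, of which 8 had a higher mean, 3 had an unadjusted limma p under 0.05, and Trp63 passed. The mean level of the list of 15 ran from 5.12 to 7.03 in keratin-rich and from 3.41 to 4.47 in keratin-poor tumours. The medullary list had 11 of 13 higher with a median of 1.36 and 2 past the threshold (Krt5 and Krt14), and the cortical list had 8 of 12 higher with a median of 0.58 and 1 past the threshold (Krt18). Both lists overlap the first, and Psmb11, a subunit of the cortical proteasome, and Foxn1, the transcription factor that thymic epithelium depends on, were not analysed here.

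Single markers of this group and the epithelial gene Esrp1 of another list, all chosen after their values were seen, were not past the threshold. Epcam, a surface protein of epithelium, was highest of all tumours in keratin-poor HIF1a+/+ tumour 5, at 9.02, and lowest in HIF1a+/+ tumour 3, at 2.32, against 5.33 to 8.56 in keratin-rich tumours. Esrp1, an epithelial splicing regulator, was likewise 6.80 in HIF1a+/+ tumour 5 and 2.11 to 2.40 in the other keratin-poor tumours, against 5.28 to 7.55. HIF1a+/+ tumour 5 was therefore keratin-poor with Epcam and Esrp1 within or above the keratin-rich range. Among other epithelial genes, Spint1 (4.77) was within its keratin-rich range in this tumour. Dsg2 (3.89), Ehf (2.10), Trp63 (2.23), Cdh1 (6.73) and Dsc2 (2.13) were below theirs. The same tumour had the highest mean level of the muscle, lung, thyroid and parathyroid list (4.40, against 2.38 to 3.41 in keratin-rich tumours). Whether its sample held other tissue was not tested. Aire, which drives display of tissue antigens in the medulla, was 2.05 to 3.01 in keratin-poor and 2.04 to 7.40 in keratin-rich tumours (difference 2.20, limma adjusted p = 0.749). Tbata, expressed in thymic epithelium, was 2.09 to 2.49 against 2.08 to 8.75 (difference 3.55, limma adjusted p = 0.602), so both genes were at background in all but some keratin-rich tumours. Ccl25, the chemokine that draws thymocytes, was 6.17 to 8.02 against 6.06 to 8.76 (difference 0.95, limma adjusted p = 0.777), and Ly75, a cortical endocytic receptor that dendritic cells share, was highest in keratin-poor HIF1a+/+ tumour 3, at 10.13 (difference -0.23, limma adjusted p = 0.970).

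**Figure D4:**
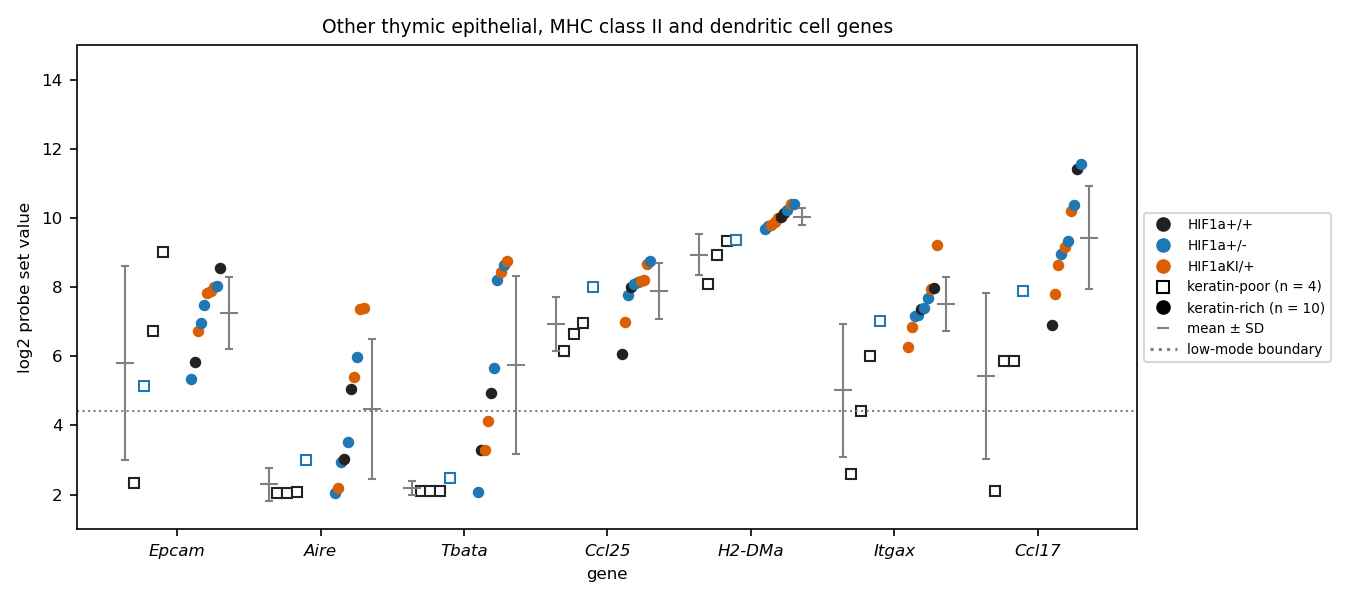
Log2 values of Epcam, Aire, Tbata, Ccl25, H2-DMa, Itgax and Ccl17 in the 14 tumours (colours, symbols, bars and dotted line as in the plot of keratins by tumour). Epcam is highest in a keratin-poor tumour (HIF1a+/+ tumour 5, 9.02), and the sides do not overlap for H2-DMa, whose lowest keratin-rich value is 9.70.

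Among 25 epithelial junction and surface genes, 16 were higher in keratin-rich tumours, against 4804 of all 10253 genes. Of the 25, 2 passed the threshold (Dsc2 and Cdh1), and the median difference was 0.06, with 15 genes below the low-mode boundary on both sides. Dsg2, the desmosomal partner of desmocollins, was 3.89 to 7.84 against 6.48 to 10.37 (difference 3.01, limma adjusted p = 0.317), and Spint1, an inhibitor of membrane serine proteases, 2.97 to 4.77 against 3.99 to 6.16 (difference 1.77, limma adjusted p = 0.205); both were chosen after their values were seen. Of 12 epithelial transcription factors and splicing regulators, 7 were higher and 5 lower, Trp63 was the member past the threshold, and the median was 0.03. Ehf, an ETS factor of epithelium chosen after its values were seen, was 2.01 to 3.00 against 2.18 to 6.10 (limma adjusted p = 0.514). Of 15 basement membrane and hemidesmosome genes 10 were higher with 0 past the threshold in limma (1 higher at an unadjusted p under 0.05) and a median of 0.32. Lamb3, a laminin chain of epithelial basement membrane, differed by 1.92 (limma adjusted p = 0.726).

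Genes of antigen presentation and dendritic cells had mostly higher means in keratin-rich tumours, without any past the threshold. Of 11 MHC class II presentation genes 9 were higher (4804 of 10253 over all genes), 6 had an unadjusted limma p under 0.05, and the median difference was 0.78. H2-DMa, which helps load peptide, was 8.11 to 9.38 in keratin-poor and 9.70 to 10.42 in keratin-rich tumours, without overlap (difference 1.11 ± 0.21 SE, limma adjusted p = 0.0924). H2-Ab1 and H2-Eb1, which encode beta chains of class II molecules, differed by 0.78 and 1.48 (limma adjusted p = 0.276 and 0.543). Of 12 dendritic cell genes 10 were higher with 3 at an unadjusted limma p under 0.05 and a median of 0.60. Itgax, encoding CD11c, was 2.60 to 7.02 against 6.28 to 9.23 (difference 2.497, limma adjusted p = 0.343), and Ccl17, a chemokine of dendritic cells and medulla, 2.11 to 7.88 against 6.90 to 11.57 (difference 4.01, limma adjusted p = 0.284). HIF1a+/+ tumour 3 was lowest for both.

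No gene of the thymocyte lists passed the threshold. For the counts that follow, all 10253 genes tested divided into 4804 higher and 5449 lower. Of 17 CD3 and T cell receptor signalling genes 8 were higher and 9 lower, with 0 past the threshold in limma, 0 at an unadjusted p under 0.05, and a median of -0.02. Of 17 double-negative thymocyte genes 5 were higher and 12 lower (median -0.17), of 12 double-positive genes 8 were higher and 4 lower (median 0.08), and of 17 mature T cell genes 11 were higher and 6 lower (median 0.50), none past the threshold, with 2, 0 and 2 at an unadjusted limma p under 0.05. Il2ra, the CD25 chain of the interleukin 2 receptor, was 6.29, 11.42, 9.93 and 2.14 in HIF1a+/- tumour 1 and HIF1a+/+ tumours 3, 4 and 5, against 2.12 to 8.26 in keratin-rich tumours (difference -3.91, limma adjusted p = 0.706). It was high in some keratin-poor tumours and at background in HIF1a+/+ tumour 5. Of 29 cell cycle genes 21 were lower and 8 higher in keratin-rich tumours (median -0.15; 2 lower at an unadjusted limma p under 0.05, 0 past the threshold), led by Bub1b, a spindle checkpoint kinase (difference -0.82, limma adjusted p = 0.543).

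**Figure D5:**
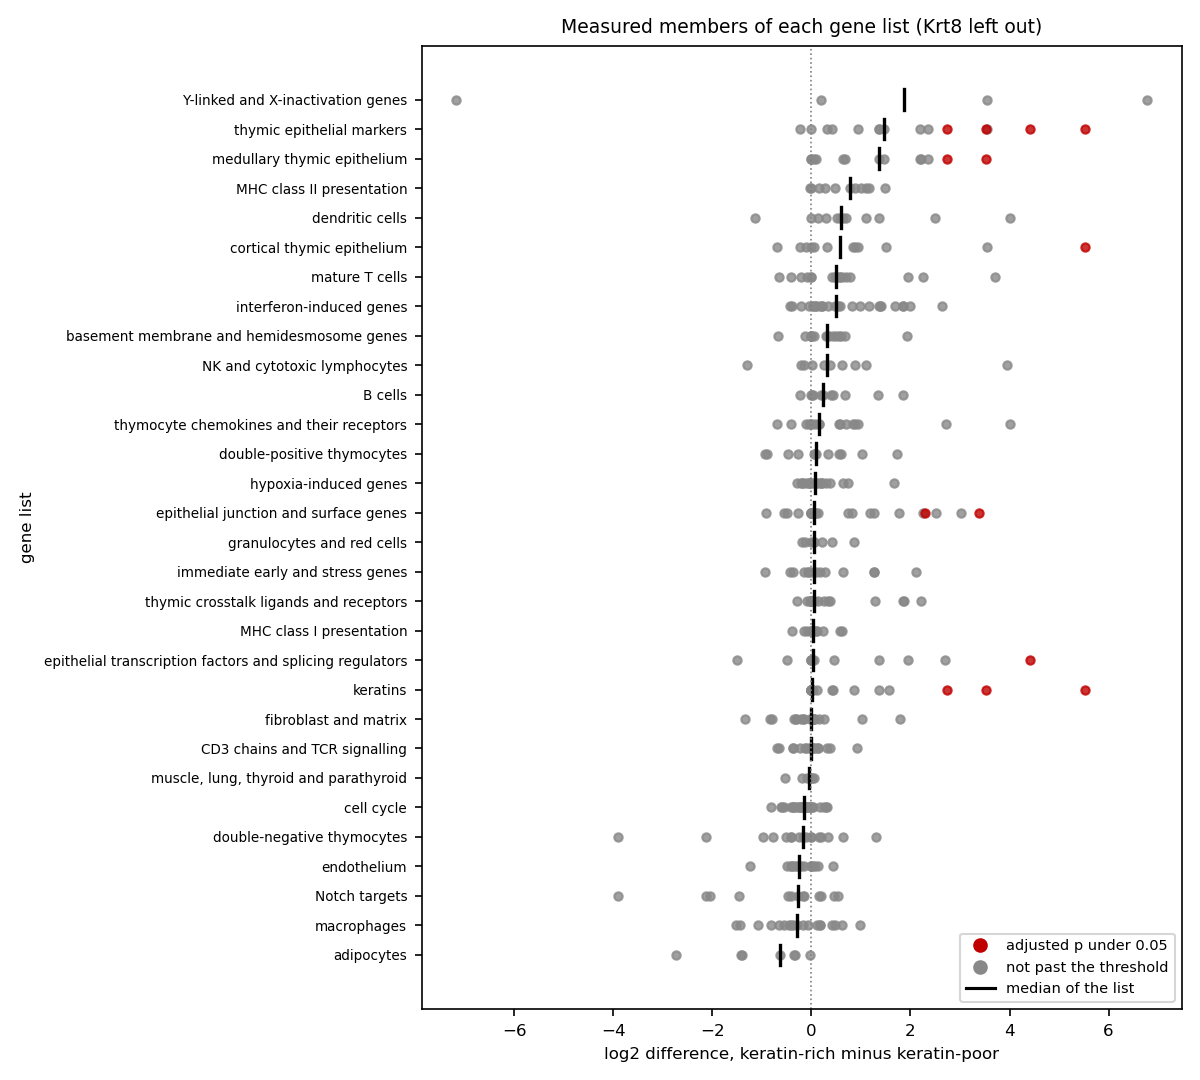
Log2 difference, keratin-rich minus keratin-poor (horizontal axis), of each measured member (points) of 30 gene lists (vertical axis, ordered by median; vertical bars mark medians; red, adjusted p under 0.05). Red points are in the epithelial lists alone; the median is 1.46 for thymic epithelial markers and -0.63 for adipocyte genes.

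Ptn, encoding the growth factor pleiotrophin, and Wfdc2, a WAP protein like Wfdc18, were chosen after their values were seen, and neither passed the threshold. Ptn was 2.29 to 5.15 in keratin-poor and 5.91 to 7.93 in keratin-rich tumours (difference 2.85 ± 0.50 SE, limma adjusted p = 0.0647), without overlap. Wfdc2 was at background in all keratin-poor tumours (2.07 to 2.08) and ran from 2.24 to 7.34 in keratin-rich ones, also without overlap (limma adjusted p = 0.543). Of the genes lower in keratin-rich tumours, none passed, and Fam210b had the smallest p: it was 8.38 to 9.13 in keratin-poor and 6.78 to 8.03 in keratin-rich tumours, without overlap (difference -1.12 ± 0.20 SE, limma adjusted p = 0.0765). Rab28, a small GTPase, was 10.78 to 11.18 against 9.93 to 10.70, also without overlap (difference -0.70 ± 0.14 SE, limma adjusted p = 0.108). Both were chosen after their values were seen.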

How the data were processed

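One array per tumour was analysed for 14 tumours, grouped by the Krt8 split and, for the make-up of the sides, by the genotype in the labels. The authors deposited log2 summaries per probe set, and the submitters' processing notes name GCRMA and Partek without versions; neither a build nor the scanner intensities were used here. The GEO platform annotation names 1 gene for 16602 of 18264 probe sets, several for 603 and none for 1059; gene IDs of 16583 probe sets matched RefSeq. The probe set of highest mean stood for a gene, which gave 10254 genes (3999 with more than 1 probe set), and no filter on level was applied.

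limma 3.58.1 in R 4.3.3 (lmFit, eBayes) was fitted with side as the only term, two-sided, with Benjamini-Hochberg adjustment over 10253 genes and a threshold of 0.05. Errors are SE of the fit or SD between tumours. The number of arrays limits the precision, and the labels call the tumours biological replicates. The fit was tested on simulated data.

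The members, gene lists and tests were chosen with earlier results of these data known, so no list is independent evidence. Lists (30, with 453 of 554 listed symbols measured) are described by counts and medians. Named are the 12 genes past the threshold, the 6 most correlated with Krt8, and from each list the members past the threshold or otherwise the 3 of smallest p. With those chosen after their values were seen, 96 genes were carried through each alternative; the text gives values for those its results turn on. Same-numbered tumours of different genotypes were checked for pairing (residual correlation -0.109 to 0.141 over 13 pairs, 1 above 0.1), so the numbers were not taken to pair them. Alternatives covered genotype or the Y-linked level as covariates, HIF1a+/+ tumours only, a filter on level, normalization, centring, moderation, array weights, probe set means, other splits, a continuous Krt8 term and leaving out each tumour. Scalings moved the median difference by at most 0.02.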

Additional observations from a re-analysis of the deposited data

Results flagged for a closer look

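Over 192 groups tested (96 genes on both sides), 38 had a highest or lowest tumour whose gap to its nearest neighbour exceeded the 95% critical value of Dixon's test; chance flags about 1 in 20 groups. Values in brackets are log2 levels of the tumour that stood apart, and many lie below the low-mode boundary of 4.41, where a small gap is enough. HIF1a+/- tumour 1 stood apart above the other keratin-poor tumours for Krt18 (7.55), Trp63 (4.64), Isl1 (2.62), Krt14 (3.84), Il7 (2.18), Ctla4 (2.44), Klrd1 (2.22), Krt7 (2.41), Aire (3.01), Tbata (2.49) and Ehf (3.00). HIF1aKI/+ tumour 4 stood apart below the other keratin-rich tumours for Defb1 (5.99) and Krt14 (3.62). HIF1a+/+ tumour 2 stood apart below the other keratin-rich tumours for Lamb3 (2.05), Spint1 (3.99) and Ly75 (8.17). HIF1a+/+ tumour 4 stood apart below the other keratin-poor tumours for Dntt (10.28) and Xist (3.85). HIF1aKI/+ tumour 5 stood apart above the other keratin-rich tumours for Bub1b (11.58). HIF1a+/+ tumour 3 stood apart below the other keratin-poor tumours for Postn (3.90). HIF1a+/+ tumour 2 stood apart above the other keratin-rich tumours for Esam (2.16) and Adipoq (4.00). HIF1a+/+ tumour 5 stood apart above the other keratin-poor tumours for Esam (3.16), Cldn5 (7.41), Sftpc (4.17), Esrp1 (6.80) and Cd3e (13.48). HIF1a+/- tumour 5 stood apart above the other keratin-rich tumours for Cldn5 (2.78), Mpo (2.04) and Alas2 (2.42). HIF1a+/+ tumour 3 stood apart above the other keratin-poor tumours for Ighm (14.18), Mpo (2.75) and Ly75 (10.13). HIF1a+/+ tumour 4 stood apart above the other keratin-poor tumours for P4ha2 (2.92), Eif2s3y (7.46) and Kdm5d (2.66). HIF1aKI/+ tumour 1 stood apart below the other keratin-rich tumours for Eif2s3y (2.09). HIF1aKI/+ tumour 1 stood apart above the other keratin-rich tumours for Xist (11.97). The difference of the side effect between HIF1a+/- and HIF1a+/+ passed the threshold in limma for 38 of 10253 genes (684 at an unadjusted p under 0.05), none of them among the 96, and it rests on HIF1a+/- tumour 1 as the one keratin-poor tumour of its genotype.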

How the results depend on the processing

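Genotype and side are not balanced, and with genotype as a covariate 0 genes were called higher, with Krt18 at 4.76 and Krt5 at 3.11, both short of the threshold; in HIF1a+/+ tumours only, 10 were called higher (2 among the 12) and 1 lower, with Krt18 at 6.25 and Krt5 at 3.71, both short of it. Counts higher and lower were 17 and 1 with a filter on level, 34 and 10 with array weights, 24 and 10 with Krt8 as a continuous term, 11 (1 among the 12) and 17 with the split at 6, 1 (not among the 12) and 0 with the split at 10, and 4 and 2 with the split at 7, which was added after seeing the data. The split at 6 left Krt18 at 5.84 and Krt5 at 4.11, and the split at 10 left them at 4.39 and 2.89, all short of the threshold. The Y-linked level as a covariate, also added after seeing the data, gave 3 higher, with Krt18 at 6.18 and Krt5 at 4.45, short of it. With the replicate block 8 of the 12 were called; Wfdc18 (limma adjusted p = 0.222), Krt14 (0.0960), Defb1 (0.0718) and Krt5 (3.50, limma adjusted p = 0.0630) were not; the same numbers did not pair the tumours. Leaving out each tumour in turn gave 4 to 18 genes higher and 0 to 7 lower (7 without HIF1a+/+ tumour 5), Krt18 at 5.11 to 6.56 and Krt5 at 3.10 to 4.04; Krt18 was short of the threshold without HIF1a+/+ tumour 3 (limma adjusted p = 0.0552). The make-up p ran from 0.0629 to 0.441 over these. Quantile normalization (9 higher), centring (13), trend and robust moderation (12) and probe set means (11) kept 0 lower. Genes not past the threshold changed sign as follows: in HIF1a+/+ tumours only, Cd8b1 (-0.46), Pdgfrb (0.50) and Tnnt2 (-0.0298); with centring, Myog (0.0069); with the split at 6, Esam (0.0796), Cldn5 (0.54) and Sftpc (0.17); with the split at 10, Heyl (0.12), Tapbp (-0.0705) and Ly75 (0.16); with the Y-linked level, Prkcq (0.10) and Kdm5d (-0.20); and on leaving out HIF1a+/+ tumour 5, Cldn5 (0.11, against a lowest value of -1.70 on leaving out another tumour). Kdm5d is among the 3 genes whose mean is the Y-linked level, so its value in that fit is adjusted for itself. The cause of the other changes was not tested.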

Other observations

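Other gene groups had no member past the threshold in limma. Their counts stand beside 4804 higher and 5449 lower among all 10253 genes tested. Of 26 interferon-induced genes 22 were higher in keratin-rich tumours (median difference 0.50, with 5 at an unadjusted limma p under 0.05). The mean level of the list overlapped, from 6.54 to 8.34 in keratin-poor and from 6.96 to 8.79 in keratin-rich tumours. Among the 22 were the GTPases Gbp2 (6.54 ± 0.48 in keratin-poor, SD, n = 4, and 8.22 ± 0.98 in keratin-rich, SD, n = 10, limma adjusted p = 0.470) and Iigp1 (6.20 ± 1.51 against 8.18 ± 1.09). Medians were 0.03 for 13 MHC class I genes (8 higher), 0.24 for 11 B cell genes (9 higher), 0.31 for 10 NK and cytotoxic genes (7 higher), 0.15 for 17 thymocyte chemokines and receptors (11 higher) and 0.05 for 17 thymic crosstalk genes (9 higher). Ccl5, a chemokine of cytotoxic lymphocytes, was 3.42 and 3.63 in HIF1a+/+ tumours 3 and 4 and 7.65 and 7.81 in HIF1a+/- tumour 1 and HIF1a+/+ tumour 5, against 7.80 to 11.05 in keratin-rich tumours (limma adjusted p = 0.283).

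All 7 measured adipocyte genes had lower means in keratin-rich tumours (median -0.63). Retn, encoding resistin, was 9.47 in HIF1a+/+ tumour 3 and 7.19 in HIF1a+/+ tumour 5, against 2.04 in both other keratin-poor tumours and 2.03 to 4.43 in keratin-rich ones (limma adjusted p = 0.723). Macrophage genes had a median of -0.30 (12 of 19 lower), endothelial genes -0.25 (13 of 17 lower), Notch targets -0.26 (9 of 13 lower) and fibroblast and matrix genes -0.01 (10 of 20 lower). Medians were 0.07 for 20 hypoxia-induced genes, 0.05 for 14 immediate early and stress genes, 0.06 for 8 granulocyte and red cell genes and -0.05 for 6 genes of muscle, lung, thyroid and parathyroid. The mean level of the muscle, lung, thyroid and parathyroid genes was 4.40 in HIF1a+/+ tumour 5. That level was 2.53 to 2.68 in the other keratin-poor tumours and 2.38 to 3.41 in keratin-rich ones. The 4 sex-linked genes had a median of 1.87, with Xist lower by 7.17 and Eif2s3y higher by 6.79.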
